A study of Mus musculus with 2 samples.

Results

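Serum response factor (Srf) and 9 genes for its partners and related ETS-domain factors were followed in cells labelled GT1-7 after a brief exposure to gonadotropin-releasing hormone (GnRH). The 10 genes were taken by name, as every non-control spot of the arrays whose gene name was Srf, Elk1, Elk3, Elk4, Mkl1, Mkl2, Ets1, Ets2, Etv4 or Etv5. They are 10 of 35019 gene names on the array and were covered by 21 of 55681 probes, each a 60-mer printed once. Mkl1 and Mkl2 carry the current symbols Mrtfa and Mrtfb, and the array's names are kept here.

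The GnRH group was 1 array of RNA from cells given 50 nM GnRH in DMEM for 30 min. The vehicle group was 1 array of RNA from cells given DMSO for 30 min. As worded, the treatments differ in carrier as well as in hormone, and the part of each cannot be told apart. GT1-7 is an immortalised line of mouse hypothalamic neurons, derived from a tumour driven by a viral T antigen under a GnRH promoter, and both cultures had been grown in medium with fetal calf serum. A free-text description of both samples names bradykinin and the A549 line instead, so the groups follow the treatment labels. Since each group is 1 array, no difference could be checked in a replicate or tested, and every value describes these 2 arrays.

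As background, SRF is a MADS-box transcription factor that binds the CArG box of immediate-early and cytoskeletal gene promoters. It works with a pair of cofactor families that compete for it. The ternary complex factors encoded by Elk1, Elk3 and Elk4 are ETS-domain proteins that MAP kinases phosphorylate, and the myocardin-related factors encoded by Mkl1 and Mkl2 are released to the nucleus when actin polymerises. The GnRH receptor couples to protein kinase C and the MAP kinase ERK, and the Srf gene itself is a known SRF target. Ets1, Ets2, Etv4 and Etv5 encode further ETS factors that lie downstream of RAS and ERK.

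The region just before the Srf start is shown because Srf was the gene of the set that differed between the arrays. RefSeq (build GRCm38.p6) gave promoter windows of 250 bases before to 50 after the start for 8 of the 10 genes. The stretch below is chr17:46556163-46556412 on the minus strand, the 250 bases before the start, read 5′ to 3′. Capitals mark, from left to right, the ETS core CCGGAA and 2 CArG boxes, the first CArG box running from base -82 to -73 and the other from -62 to -53.

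Srf: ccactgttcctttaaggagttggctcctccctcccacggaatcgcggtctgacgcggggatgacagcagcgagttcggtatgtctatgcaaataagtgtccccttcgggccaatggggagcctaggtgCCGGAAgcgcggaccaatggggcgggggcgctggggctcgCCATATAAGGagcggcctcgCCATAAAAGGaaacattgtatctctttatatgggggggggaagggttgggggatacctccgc

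Some genes have several starts and so several windows, and a gene is counted where any of its windows holds the motif. The windows were searched on both strands for the CArG box by its name, for GGAA, for CCGGAA, which contains GGAA, and for the cAMP response element core TGACG. A CArG box was in 1.63% of all 32851 windows of 300 bases, and 2 or more were in 6 windows (0.0183%). Srf was the only one of the 8 genes with a CArG box in a window, and its window held 2. CCGGAA was in windows of 3 of the 8 genes (Srf, Elk4 and Mkl2), against 14.9% of all windows, and TGACG was in those of 4 (Srf, Elk4, Mkl2 and Ets2), against 20.8%. GGAA was in a window of each of the 8 genes and in 96.0% of all windows. These shares are per window, while Elk4 and Mkl2 have 3 windows each, so the gene counts and shares are not like for like. The next lines show the Elk4 site (chr1:132007542-132007567, plus strand), and the CArG boxes of the immediate-early genes Zfp36 (chr7:28379267-28379296, minus strand) and Egr2 (chr10:67537787-67537816, plus strand), in capitals. The letters of the Zfp36 box are those of the Srf box nearer the start. A match describes the letters only.

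Elk4: ggcccctcccCCGGAAgtgacgctcg
Zfp36: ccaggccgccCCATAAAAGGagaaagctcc
Egr2: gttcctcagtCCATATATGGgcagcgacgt

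Signals below are the scanner software's processed signals in linear units. They were set against each array's 75th percentile over all probes, 541 on the GnRH array and 578 on the vehicle array, before a difference was taken. This adds 0.09 to each log2 difference, GnRH minus vehicle, so a slightly lower signal on the GnRH array can go with a difference of 0. The error given with a difference is the scanner software's, combined over both arrays. It rests mostly on that software's multiplicative setting of 0.1 and holds no variation between cultures. A probe counted as measured when it was well above background on both arrays; that held for 18 of the 21 probes and for at least 1 probe of each of the 10 genes. A gene's value is that of its brightest measured probe.

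Of the series as a whole, 21219 genes were measured, with a median log2 difference of -0.01 and a central 95% from -0.39 to 0.43. No spot was saturated, both arrays lay on 1 slide, and none of the 21 spots lay in the 3 areas of the array where neighbouring spots differed together. Gnrh1, the defining gene of the labelled cell type, failed to rise well above background (signals of 10.3 on the GnRH array and 7.94 on the vehicle array). Of the marker lists, 6 of 8 genes of hypothalamic GnRH neurons, 4 of 6 of neurons and 5 of 6 of pituitary gonadotropes were measured on both arrays. So were 3 of 4 of astrocytes, 3 of 4 of microglia or macrophages and 2 of 5 of fibroblasts. For lung epithelium 2 of 7 were measured, and for other pituitary cells 0 of 5. Such a count alone does not name the cells. The gonadotrope gene Cga had signals of 69481 on the GnRH array and 80508 on the vehicle array. In the same order, Pitx1 had 44001 and 48204, Nr5a1 28614 and 33412, and Gnrhr 13656 and 14862. Lhb was dim (72.1 and 71.5), and Fshb was near background on both arrays. The brightest gene of the GnRH neuron list, Lhx2, had 4162 and 4362. The cells are therefore called by their label only. None of the markers measured on both arrays differed by 2-fold, and their part in the results was not tested.

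Srf was at least 2-fold higher on the GnRH array by both of its probes, and it was the only 1 of the 10 genes past that fold in either direction. Of all measured genes, 0.311% were higher by that fold and 0.132% lower. Fewer cells expressing a gene and less of its RNA per cell cannot be told apart in such bulk RNA. The other 9 genes differed by -0.14 to 0.49 on the log2 scale, with 5 above 0 and 4 below. None of the 9 reached 1.5-fold, a fold passed upward by 1.19% and downward by 0.881% of all genes. The median over the 10 genes was 0.02, beside -0.01 over all measured genes.

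**Figure D1:**
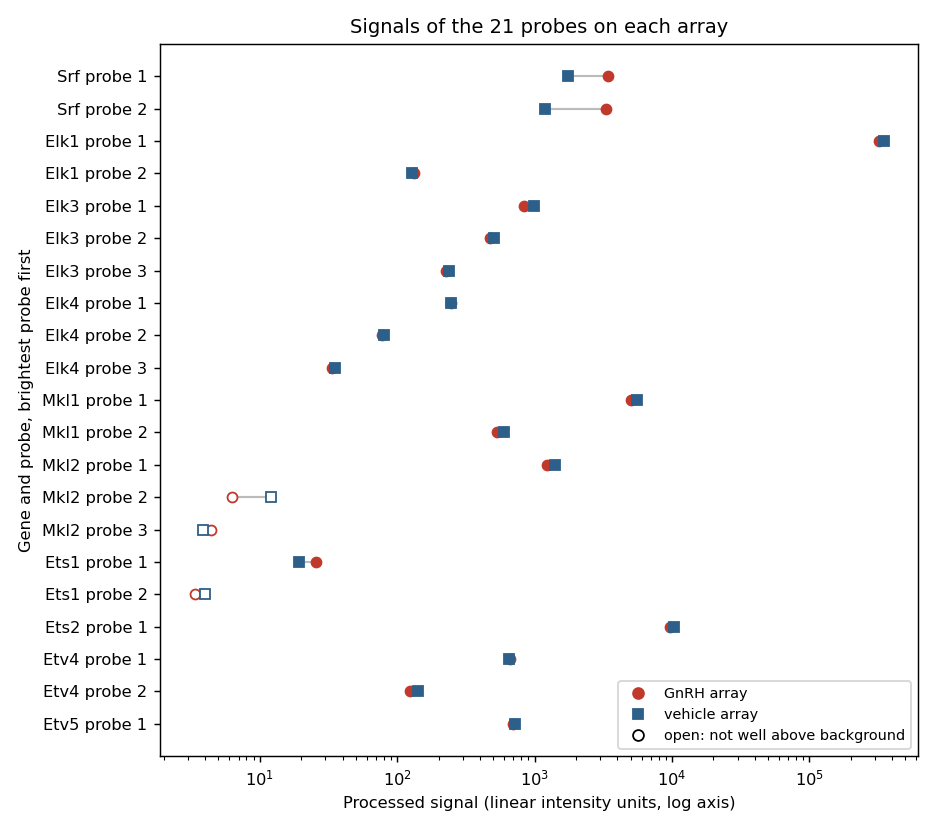
Processed signal (linear units, log axis) of each of the 21 probes on the GnRH array (circles) and the vehicle array (squares), with open symbols for the 3 probes that were not well above background. The circles of both Srf probes lie right of their squares (3425 and 3321 on the GnRH array, against 1746 and 1199 on the vehicle array), while the other measured pairs nearly coincide.

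The brighter Srf probe (chr17:46685306-46685365, minus strand, build mm9 as the files give it) had a signal of 3425 on the GnRH array, against 1746 on the vehicle array. It was 2.10-fold higher on the GnRH array, a log2 difference of 1.07 ± 0.20, so the 2-fold line lay within its error. The other Srf probe is listed at chr17:46683788-46683795 on the same strand, a span of 8 bases that cannot hold the whole 60-mer. This probe had a signal of 3321 on the GnRH array, against 1199 on the vehicle array. It was 2.96-fold higher, a log2 difference of 1.56 ± 0.20. Both probes were thus high on the GnRH array, at nearly the same signal, and they differed more on the vehicle array. The difference of the dimmer probe exceeded that of the brighter one by 0.50 ± 0.29 on the log2 scale, so the probes give the direction alike and the size less closely.

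The unsubtracted Srf signals were 3379 on the GnRH array and 1764 on the vehicle array for the brighter probe. For the other probe they were 3297 on the GnRH array and 1215 on the vehicle array. The local background around these 4 spots was 69 to 71, so little of either signal was background. Printed copies of a probe give a measure of the error between spots. Among the 40 probes printed 10 times that were nearest to the brighter Srf probe in signal, single-spot log2 differences had an SD of 0.046. The copies share the same arrays, so this SD holds no variation between cultures, labellings or hybridizations.

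Srf ranked at 57 among the 21219 measured genes, counted from the highest difference. Of the 500 genes nearest to it in mean signal, 0 differed by as much upward, and their central 95% ran from -0.20 to 0.16. The other 9 genes all lay inside the range of the 500 genes nearest to each of them. Whether a probe lies in an exon or an untranslated region is not given, as no mm9 gene models were used.

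**Figure D2:**
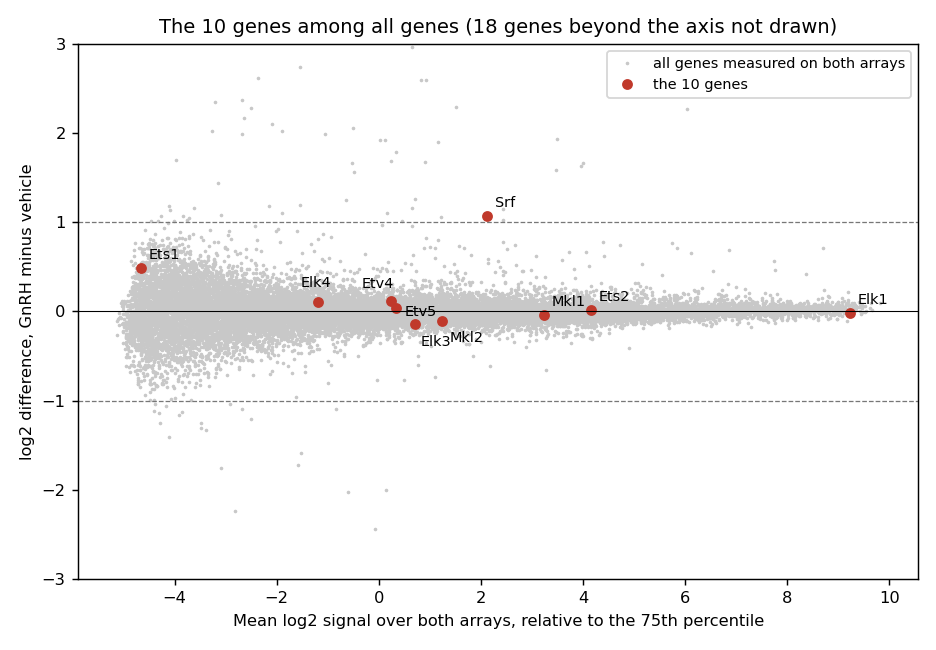
Log2 difference, GnRH minus vehicle, against the mean log2 signal relative to the 75th percentile, for all 21219 measured genes (grey) and the 10 genes (red, named); dashed lines mark 2-fold and 18 genes beyond the axis are not drawn. Srf (1.07) stands above the upper line, and Ets1 (0.49) lies at the dim end, where the grey cloud is widest.

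The ternary complex factor genes did not differ by 1.5-fold on any of their 8 probes. Elk4, an activator of immediate-early promoters together with SRF, had signals of 248, 78.2 and 33.5 on the GnRH array, against 245, 80.2 and 35.5 on the vehicle array, by its 3 probes from bright to dim. Their log2 differences were 0.11 ± 0.21, 0.06 ± 0.23 and 0.01 ± 0.28, all smaller than the scanner error. The Elk4 probes lay on the plus strand of chromosome 1 between bases 133914898 and 133922204 (mm9).

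Elk3 encodes a ternary complex factor known to repress SRF targets until RAS signalling turns it into an activator. Its 3 probes had signals of 840, 471 and 228 on the GnRH array, against 992, 505 and 237 on the vehicle array. The log2 differences were -0.14 ± 0.20, -0.00 ± 0.20 and 0.04 ± 0.21. The brightest probe was the lowest of the 3, and each value lay within its error of 0. The probes lay on the minus strand of chromosome 10 between bases 92710178 and 92712156 (mm9).

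Elk1, the ternary complex factor studied most as an ERK substrate, was covered by 2 probes with very different signals. The probe at chrX:20510521-20510580 had a signal of 323529 on the GnRH array, against 349176 on the vehicle array, the rank of 49 and 37 among all 55681 probes. The probe at chrX:20512461-20512520 had a signal of 132 on the GnRH array, against 129 on the vehicle array. Both lay on the minus strand (mm9). Their log2 differences were -0.02 ± 0.20 for the bright probe and 0.12 ± 0.21 for the dim one, so neither differed beyond its error.

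The bright Elk1 probe shares a run of at least 16 bases, on the same strand, with 14 probes of the array that carry other names. Of these 14 probes, 11 had signals above 10000 on both arrays, as did 6.43% of all probes. Their median signal was 106006 on the GnRH array and 122281 on the vehicle array, and their log2 differences ran from -0.21 to 0.05. The sequence is that of the B1 family of short interspersed repeats, which occur in and near a great many mouse genes. A stretch of 30 bases of the Elk1 probe is shown beside those of 4 others to let the shared run be seen, with capitals for 16 bases that stand in the Elk1 probe and in 7 other probes; the 4 were chosen after their values were seen.

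Elk1: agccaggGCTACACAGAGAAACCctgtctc
Med16: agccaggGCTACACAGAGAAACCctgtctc
Glrx2: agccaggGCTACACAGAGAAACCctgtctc
Cxcl11: agccaggGCTACACAGAGAAACCctatctt
Cdcp1: aaatccaGCTACACAGAGAAACCctttctt

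The printed stretches of Elk1, Med16 and Glrx2 are identical over all 30 bases. The files place the 60-mers at chr10:79357669-79357728 for Med16, chr1:145596708-145596767 for Glrx2, chr5:92788567-92788626 for Cxcl11 and chr9:123081403-123081462 for Cdcp1 (mm9). Med16 had signals of 351449 on the GnRH array and 362027 on the vehicle array, and Glrx2 had 433681 on the GnRH array and 451512 on the vehicle array. The Cxcl11 probe had 239078 on the GnRH array and 252119 on the vehicle array. The Cdcp1 probe, with a longest shared run of 18 bases, had 35.3 on the GnRH array and 43.7 on the vehicle array. The Dnajc5 probe, also with a run of 18 bases, had 66532 on the GnRH array and 78241 on the vehicle array, so a run of that length was found at low and at high signal. How much of the bright Elk1 signal came from Elk1 transcripts was not tested, so the dim probe, which shares no such run with a probe of another gene, is the other reading of this gene. Over all probes, 16.1% share such a run with at least 1 probe of another name and 0.988% with 10 or more. Among the 21 probes here, 5 share one, and none of them is a Srf probe.

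The myocardin-related factor genes were slightly lower in signal on the GnRH array by each measured probe, with every log2 difference smaller than its scanner error. Mkl1 had signals of 5035 and 535 on the GnRH array, against 5518 and 603 on the vehicle array (chromosome 15, minus strand, bases 80842711 to 80843139, mm9). Its log2 differences were -0.04 ± 0.20 and -0.08 ± 0.20, and the groups' signals were within 1.5-fold by both probes. Mkl2 had a signal of 1236 on the GnRH array, against 1420 on the vehicle array, by the probe at chr16:13417529-13417588 (mm9), a log2 difference of -0.10 ± 0.20. Its remaining 2 probes stayed near background on both arrays, with signals of 6.30 and 4.39 on the GnRH array, against 12.2 and 3.87 on the vehicle array, and no fold is given for them.

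Among the ETS factors outside the ternary complex group, Ets2 was bright and nearly equal on both arrays. Its single probe (chr16:95942227-95942286, mm9) had a signal of 9745 on the GnRH array, against 10293 on the vehicle array, a log2 difference of 0.02 ± 0.20. Etv4 and Etv5 belong to the PEA3 subfamily and are known as transcriptional outputs of fibroblast growth factor signalling. Etv5 had a signal of 692 on the GnRH array, against 722 on the vehicle array, a log2 difference of 0.03 ± 0.20 (chr16:22381387-22381446, mm9).

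Etv4 had signals of 665 and 123 on the GnRH array, against 653 and 142 on the vehicle array, by probes at chr11:101631057-101631116 and chr11:101631322-101631381 (mm9). Its log2 differences of 0.12 ± 0.20 and -0.11 ± 0.21 pointed in opposite directions, and both were within the error. The difference between the 2 probes, -0.23 ± 0.29, was within its error as well.

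Ets1, known from lymphocytes and endothelium, stood least above its local background of the 10 genes. The probe at chr9:32561826-32561885 (mm9) had a signal of 25.5 on the GnRH array, against 19.4 on the vehicle array, a 1.40-fold difference (log2 0.49 ± 0.37). Before subtraction its signals were 99.5 on the GnRH array and 94.3 on the vehicle array, over local backgrounds of 70 and 67. Of the 500 genes nearest to it in signal, 29 differed by at least as much upward, and their central 95% ran from -0.70 to 0.64. The other Ets1 probe stayed near background, at a signal of 3.36 on the GnRH array and 4.0 on the vehicle array. The value of 0.49 became 0.13 with normexp background correction and 0.20 with a pseudocount of 32, so its size depends on how background is handled.

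**Figure D3:**
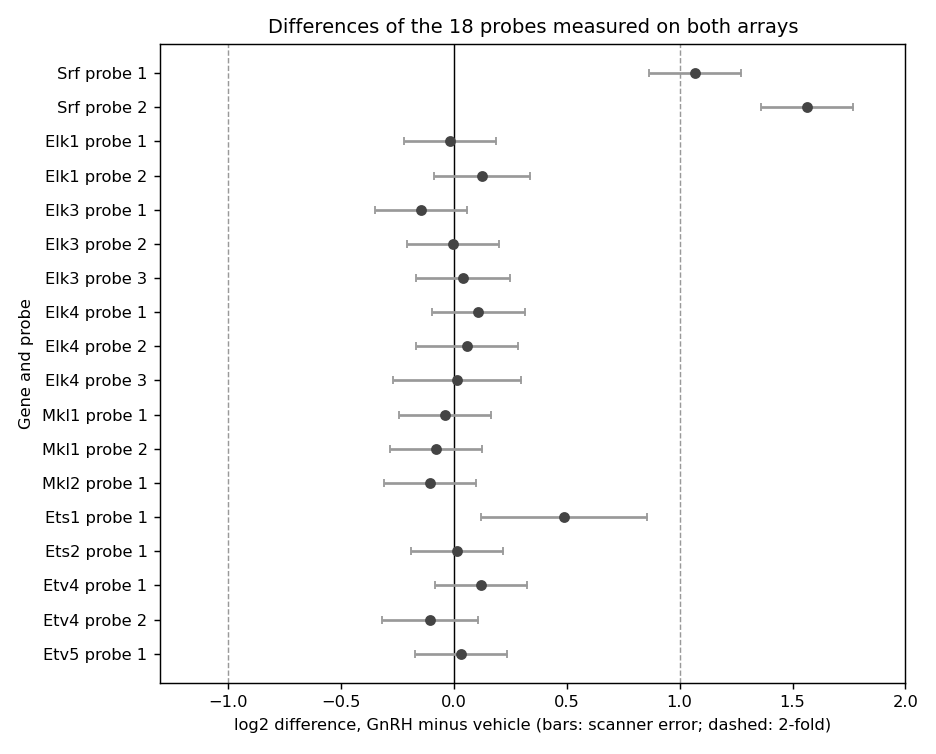
Log2 difference, GnRH minus vehicle, of the 18 measured probes, with bars for the scanner error and dashed lines at 2-fold. The 2 Srf probes (1.07 and 1.56) lie past the line, though the bar of the brighter one (1.07) crosses it. Of the other 16 probes, 15 have bars that cross 0, the exception being Ets1 at 0.49 ± 0.37.

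The genes that SRF and its partners are known to act on were described by lists. They were chosen with earlier results of these data known, so they give no independent evidence of a direction. Of 13 immediate-early genes linked to ternary complex factors and SRF, 9 were measured and 8 were at least 2-fold higher on the GnRH array, with a median log2 difference of 3.09. The largest was that of the zinc-finger factor gene Egr1 (8.47), followed by the AP-1 genes Fosb (6.36), Fos (5.98) and Junb (3.31). Ier2 (3.09), the synaptic gene Arc (2.96), the antiproliferative gene Btg2 (2.29) and the orphan receptor gene Nr4a1 (2.27) made up the 8. Without probes that share a run of bases with probes of other names, the count was 7. Mcl1, a survival gene of the BCL2 family with a known SRF and ternary complex site, had signals of 9413 on the GnRH array and 11201 on the vehicle array (-0.16 ± 0.20).

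Egr2 and the RNA-decay gene Zfp36, whose CArG boxes are printed above, were well above background on the GnRH array only. Egr2 had a signal of 2186 on the GnRH array and 8.16 on the vehicle array, and was at least 143-fold higher. Zfp36 had a signal of 103 on the GnRH array and 8.03 on the vehicle array, and was at least 6.77-fold higher. Such a bound sets the scaled bright signal against the dim probe's own signal on the other array or the dimmest signal well above background there, whichever is higher. With both genes at their bound the list's median was 3.09 over 11 genes. Egr3 and Egr4 were not well above background on either array.

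Of 21 actin and adhesion genes linked to myocardin-related factors and SRF, 18 were measured and 2 were at least 2-fold higher, with a median of 0.11 (0.07 over 19 genes with a bound added). Cyr61, which encodes a matricellular protein, had signals of 2515 on the GnRH array and 446 on the vehicle array, a log2 difference of 2.59. Fhl2, which encodes a LIM-domain cofactor, had 660 on the GnRH array and 239 on the vehicle array, a difference of 1.56. The next in size were the actin-binding genes Cnn2 (0.40) and Vcl (0.34), below 1.5-fold. Cnn1 was well above background on the vehicle array only, at least 2.09-fold lower on the GnRH array, while Myl9 and Ctgf were so on neither.

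**Figure D4:**
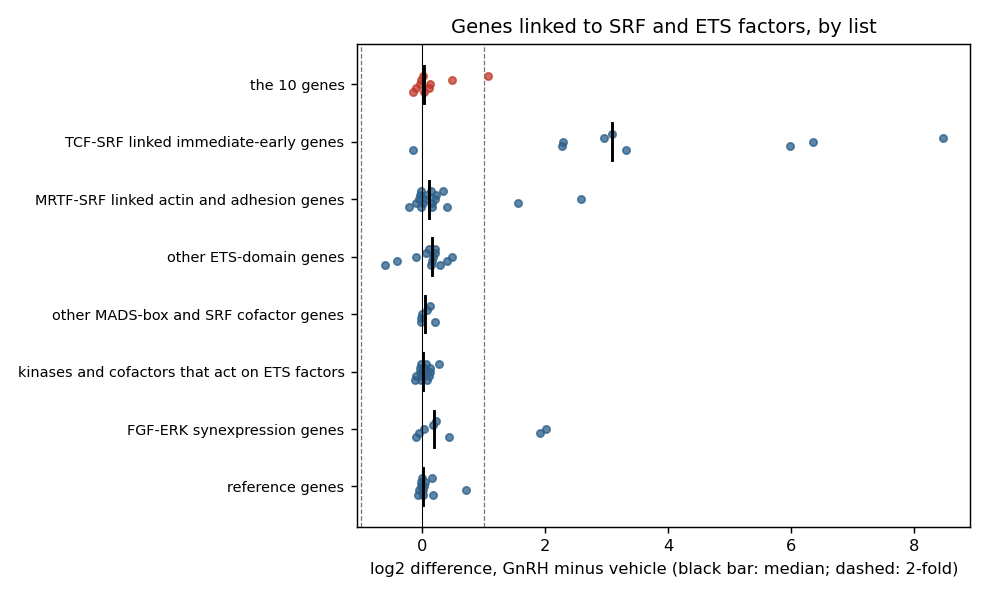
Log2 difference, GnRH minus vehicle, of each measured gene, in 1 row for the 10 genes (red) and 1 row for each list (blue), with black bars for medians and dashed lines at 2-fold. The immediate-early list has its median at 3.09, and the other rows have medians between 0.01 and 0.20.

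Of 19 other ETS-domain genes, 13 were measured and none was 2-fold higher or lower. Their median was 0.15, and the largest differences in size were those of Spic (-0.61), Elf3 (0.49), Erg (-0.41) and Elf4 (0.40). Elf5 and Ehf were well above background on the GnRH array only, with bounds of at least 1.38-fold and at least 1.30-fold higher. Etv2, Fli1, Sfpi1 and Spib were near background on both arrays. Of 9 other MADS-box and SRF cofactor genes, 6 were measured, none past 2-fold, with a median of 0.04. They were led by Mef2a (0.20), Scai (0.13), Mamstr (0.08) and Mef2b (-0.02), and Myocd, the muscle relative of Mkl1 and Mkl2, was near background on both arrays, as were Mef2c and Nkx2-5.

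All 15 genes for kinases and cofactors that act on ETS factors were measured, with a median of 0.01 and none past 2-fold. The largest difference was that of the JNK gene Mapk8 (0.27), followed by Sin3a, Crebbp and Ep300 (0.13, 0.12 and 0.11). Of 8 genes known to be co-expressed with Etv4 and Etv5 under fibroblast growth factor and ERK signalling, 2 were at least 2-fold higher. They were the feedback inhibitor genes Spry4 (2.02) and Dusp6 (1.92). Without probes that share a run of bases with probes of other names, this count was 1. Spry2 (0.44) and Spry1 (0.22) came next, the list's median was 0.20, and Etv1, the PEA3 subfamily member beside Etv4 and Etv5, was at -0.10. Of 12 reference genes none was past 2-fold, their median was 0.01, and Tbp, B2m and Pgk1 differed by 0.17, 0.16 and -0.07.

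**Figure D5:**
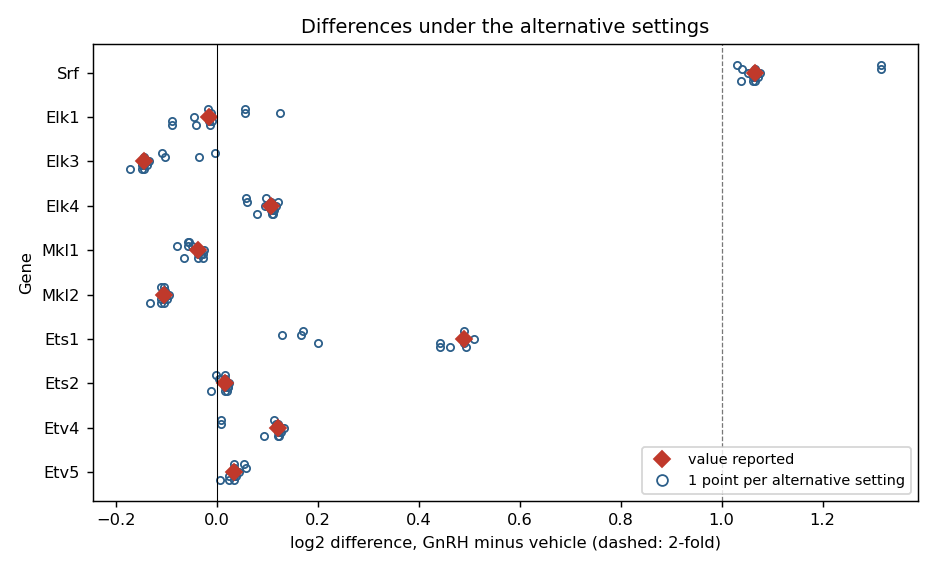
Log2 difference, GnRH minus vehicle, of each of the 10 genes as reported (red diamonds) and under up to 14 alternative settings (blue circles), with a dashed line at 2-fold. Srf stays right of the line, from 1.03 to 1.32, and the other 9 genes stay between -0.17 and 0.51.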

How the data were processed

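Per the labels' protocols, cRNA amplified from total RNA of each culture was labelled with Cy3, and each sample was read on its own Agilent mouse array in 1 colour. The deposited scanner files hold linear intensity per spot, which Feature Extraction 10.7.1.1 background-subtracted and detrended within each array, per the file headers; version 9.5.1.1 is named in the submitters' processing notes. The authors' deposited value table, also linear intensity, was an alternative. Both its columns have a median of 28.4, and their log2 values follow those of the scanner signals (r of 0.9999 on each array). No source used here states its between-array step. Its results were close to those of quantile normalization of the scanner signals. Both gave 63 genes at least 2-fold higher, 31 lower and a Srf difference of 1.06. Control spots and spots marked as outliers (94 on the GnRH array, 121 on the vehicle array) were left out. Log2 processed signals were averaged per probe and the array's 75th percentile was subtracted. The mark "well above background" was required on 50% or more of a probe's spots, and it was carried by 56.9% of spots on the GnRH array and 55.2% on the vehicle array. Probes were named by accession through RefSeq (27235 of 55681) or else by the file. The number of arrays limits the precision, so genes were counted at 2-fold with no test.

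The text names all 10 genes and, in each list, those past 2-fold or, where fewer than 4 were, the largest up to 4; Mcl1, genes on 1 or neither array and those beside the Elk1 probe were added after their values were seen. Some genes that this rule names are not reported here. The members, lists and settings were chosen with earlier results of these data known. Areas of the array were found as connected spots whose neighbours within 2 rows and columns had a median log2 difference of 0.3 or more in size, with signals floored at 16. Alternatives changed the scaling, background correction, filter on dim probes, rule for several probes, outlier spots, areas, pseudocount (32), value table or threshold. On data simulated from the vehicle array, only the scaling and gene-value steps were tested, by the recovery of planted folds. Python 3.11.15 and limma 3.58.1 (normexp) were used.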

Additional observations from a re-analysis of the deposited data

How the results depend on the processing

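All 138 values of the 10 genes under 14 alternatives were compared with those reported, and 2 moved by more than the scanner error. These were the Srf difference of 1.07, at 1.32 with the mean over probes and 1.32 with the median over all probes, which bring in its other probe. Srf ranged from 1.03 to 1.32. None of the 9 others passed 2-fold in any setting, and Ets1 had no value with the stricter filter or without probes that share bases with other probes, a setting chosen after the data were seen. Without such probes Elk1 was at 0.12. At a 3-fold threshold 0 of the 10 genes were higher. The 66 genes at least 2-fold higher became 1259 with no filter on dim probes, 964 with the median over all probes, 253 at 1.5-fold and 40 at 3-fold. The 28 lower became 760 with no filter on dim probes, 9 under the stricter one, 12 by normexp, 12 on uncorrected signals, 569 with the median over all probes, 14 without the areas, 13 with the pseudocount, 187 at 1.5-fold and 13 at 3-fold. The immediate-early median of 3.09 became 2.65 with normexp, 2.63 with no background correction and 2.84 with the pseudocount; the rest of 98 medians of lists moved by less than the scanner error. Of 224 counts of genes past a fold in the lists, 12 moved by over 1.5 times. Beyond what a setting's construction shows, the cause was not tested. Signal over background limits Ets1 and the 3 dim probes. No paired analysis was possible because there was 1 array per group.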

Other observations

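CArG boxes stood in promoter windows of 6 of the 17 actin and adhesion genes that RefSeq gave a window for. Of the 9 immediate-early genes with a window, 2 had a CArG box, and 1.63% of all windows held one. That share is per window, while some of these genes have several (Egr2 has 5), so counts and share are not like for like. The lists hold known SRF targets, so this is a description. Of the 6, Fhl2 differed by 1.56 on the log2 scale, Cnn2 by 0.40, Vcl by 0.34, Actg1 by 0.22 and Fhl1 by -0.02, and Myl9 was near background on both arrays. Cyr61, with the largest difference of that list (2.59), is not among the 6.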
